A study of Mus musculus with 8 samples.

Results

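The genes described are RANK ligand (Tnfsf11), its signalling receptor RANK (Tnfrsf11a), its soluble decoy receptor osteoprotegerin (Tnfrsf11b), and 7 further ligand genes of the tumour necrosis factor (TNF) superfamily, Tnf, Tnfsf9, Tnfsf10, Tnfsf12, Tnfsf13b, Tnfsf14 and Fasl. They were read from every probe set that the platform annotation gives to exactly 1 of these 10 genes, which made 18 probe sets for 9 genes, out of 34945 probe sets for 18193 genes. Tnfsf12 had no probe set of that kind and has no value as a member. The genes were chosen with their difference between the genotypes known, so for them that difference is given as a description, with no test.

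Expression was measured on arrays in multipotent progenitors sorted from bone marrow of female C57BL6 mice aged 8 to 10 weeks. The cells lacked lineage markers and CD150 and carried Sca-1, c-Kit and CD48. Of these samples, 4 came from FLT3-ITD mice, whose Flt3 gene, for a receptor tyrosine kinase, carries an internal tandem duplication, and 4 came from wild type mice. Per genotype the samples are replicates 1, 2, 3 and 037, the last being labelled as a further sample 1 with the tag 037. The labels do not say whether it repeats replicate 1, whether replicates came from separate mice, how many copies of the altered allele the mice carried or how the allele was made. The p-values below thus rest on differences among these arrays, and part of that spread may be technical.

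TNF superfamily ligands are trimeric membrane proteins, many of which proteases can release, and they act on receptors of the TNF receptor superfamily that recruit TRAF adaptors or death domain proteins. RANK ligand on osteoblast lineage cells, osteocytes and lymphoid cells drives RANK-bearing myeloid precursors to become bone-resorbing osteoclasts, and osteoprotegerin blocks this by binding the ligand. In bone marrow the family is also known for B cell survival through BAFF (Tnfsf13b), and for cell death through TRAIL (Tnfsf10) and Fas ligand.

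RANK ligand stood apart from the other members. Its probe set 1419083_at read 7.33, 6.74, 6.82 and 6.77 in FLT3-ITD replicates 1, 2, 3 and 037, against 4.08, 4.48, 4.30 and 5.30 in wild type replicates 1, 2, 3 and 037 (log2 expression). Every FLT3-ITD array was higher than every wild type array, with a gap of 1.44 between the nearest arrays. The means were 6.92 ± 0.28 in FLT3-ITD and 4.54 ± 0.53 in wild type (SD, n = 4 each), a difference of 2.37 ± 0.27 on the log2 scale (SE). All 4 FLT3-ITD arrays lay above their array's median over all probe sets, and all 4 wild type arrays lay below it. At such dim signal an array cannot tell a low level from none, so no fold is given for RANK ligand.

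The other Tnfsf11 probe set, 1451944_a_at, was dim on all 8 arrays. It read 3.63, 3.60, 3.58 and 4.17 in FLT3-ITD replicates 1, 2, 3 and 037, against 3.19, 3.07, 3.28 and 3.47 in wild type. These groups did not overlap either, although the gap was 0.12, and the difference was 0.50 ± 0.16 (SE). Both probe sets thus differed in the same direction and by unlike amounts. Averaged over both probe sets, Tnfsf11 lay at 5.17 to 5.48 in FLT3-ITD and at 3.64 to 4.39 in wild type.

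The promoters of Tnfsf11 and Tnfsf10 are shown because these are the 2 members with a probe set whose genotypes did not overlap. They are the 250 bases before the gene start in RefSeq, build GRCm38.p6, written 5′ to 3′ along the gene, at chr14:78308044-78308293 on the minus strand for Tnfsf11 and at chr3:27316827-27317076 on the plus strand for Tnfsf10. Capitals mark matches to a STAT motif (TTCNNNGAA), a kappaB-type motif (GGG and CC with any 5 bases between them) or a TATA motif (TATAA) on either strand, where N is any base.
Tnfsf11 promoter: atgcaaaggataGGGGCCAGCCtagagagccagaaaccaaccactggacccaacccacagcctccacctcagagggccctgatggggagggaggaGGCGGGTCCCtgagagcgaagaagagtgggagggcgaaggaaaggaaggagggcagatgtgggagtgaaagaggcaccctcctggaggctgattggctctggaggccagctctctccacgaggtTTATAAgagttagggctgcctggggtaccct
Tnfsf10 promoter: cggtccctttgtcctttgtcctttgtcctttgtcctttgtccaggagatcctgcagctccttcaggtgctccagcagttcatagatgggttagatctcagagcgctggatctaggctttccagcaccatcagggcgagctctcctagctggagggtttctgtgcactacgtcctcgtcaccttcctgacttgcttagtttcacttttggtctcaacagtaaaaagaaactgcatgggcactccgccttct
The Tnfsf11 window held 2 kappaB-type matches, starting 238 and 155 bases before the gene start, and the TATA motif on both strands in overlap, 31 and 30 bases before it. The Tnfsf10 window held none of the 3 motifs. Of the members, 7 had a promoter in the table, 5 of them with a kappaB-type match, 2 (Tnfsf11 and Tnf) with a TATA match and 0 with a STAT match. Over all 32851 promoters of the table, 45.8% held the kappaB-type motif, 22.8% the TATA motif and 7.02% the STAT motif. These are matches of letters and say nothing of binding.

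The receptors of RANK ligand differed little between the genotypes. RANK probe set 1419214_at read 5.15, 4.85, 4.80 and 4.95 in FLT3-ITD replicates 1, 2, 3 and 037, against 4.81, 4.66, 4.26 and 4.43 in wild type. The groups overlapped only between FLT3-ITD replicate 3 and wild type replicate 1, and the difference was 0.40 ± 0.15 (SE). The second RANK probe set, 1430259_at, did not show this: it read 4.42 to 4.69 in FLT3-ITD and 4.33 to 4.88 in wild type, with a difference of −0.07 ± 0.14. Both lay below the median of every array.

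Osteoprotegerin was also below the array median throughout. Its probe set 1418309_at read 5.70, 5.78, 5.50 and 5.66 in FLT3-ITD replicates 1, 2, 3 and 037, against 5.47, 5.61, 5.48 and 5.68 in wild type, a difference of 0.10 ± 0.11 (SE). Probe set 1449033_at lay at 2.15 to 2.49 in FLT3-ITD and at 2.23 to 2.49 in wild type. The groups overlapped on both probe sets.

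**Figure D1:**
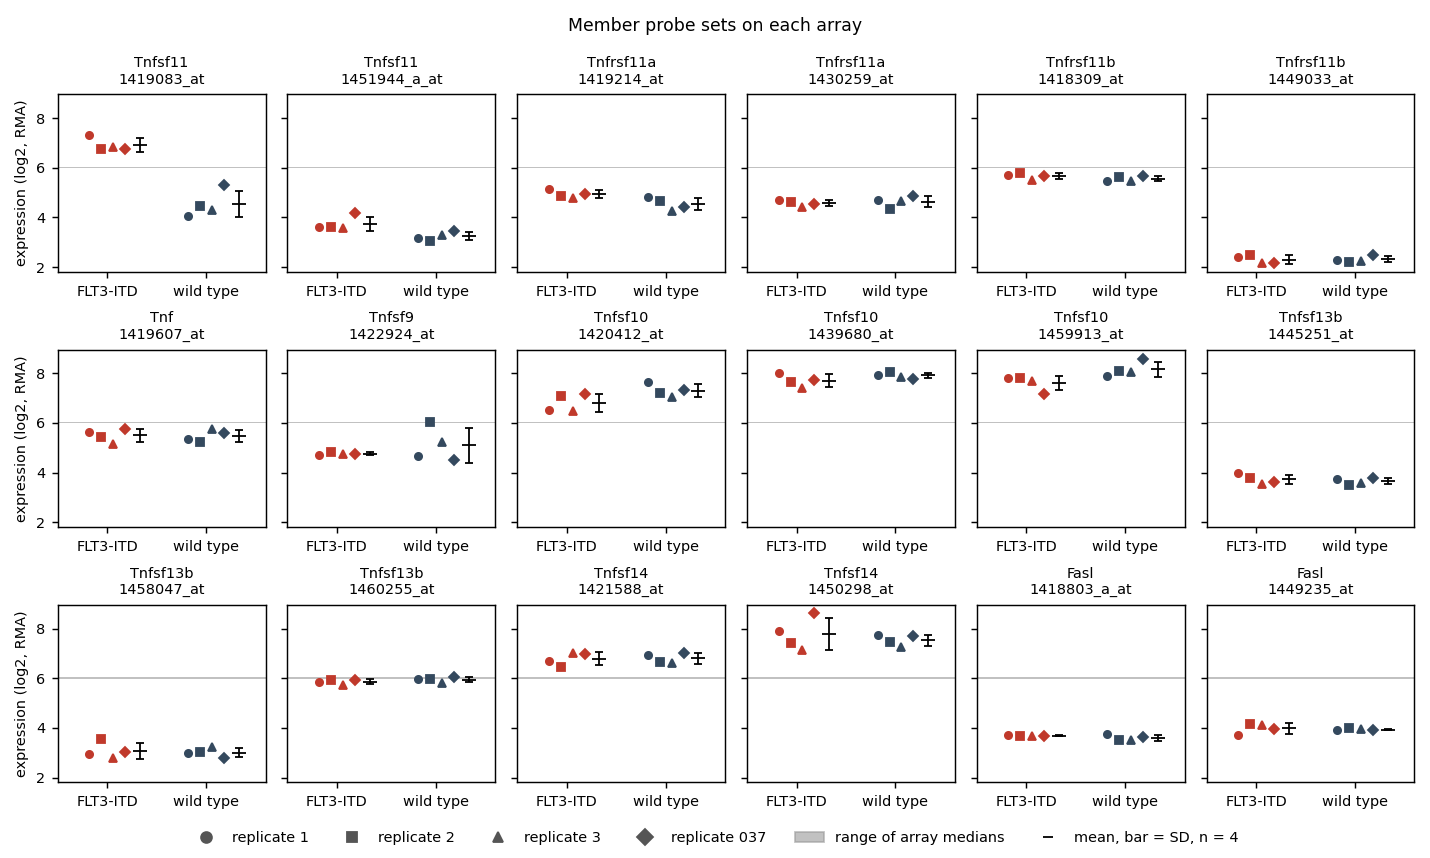
Log2 expression (RMA) of the 18 member probe sets, with a point for each array, FLT3-ITD left of wild type, the mean with its SD (n = 4) beside them, and a grey line for the range of array medians (5.98 to 6.05). Tnfsf11 1419083_at is above the line on all 4 FLT3-ITD arrays and below it on all 4 wild type arrays, while the 3 Tnfsf10 and 2 Tnfsf14 probe sets are above it on all 8.

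TRAIL (Tnfsf10), a ligand that triggers cell death through death receptors, was above the array median on every array with each of its 3 probe sets. Probe set 1459913_at read 7.79, 7.79, 7.70 and 7.17 in FLT3-ITD replicates 1, 2, 3 and 037, against 7.90, 8.10, 8.05 and 8.59 in wild type. Here every FLT3-ITD array was lower than every wild type array, by a gap of 0.11, with a difference of −0.55 ± 0.20 (SE). Without both replicates 037 it was −0.26. The other probe sets overlapped between the genotypes: 1420412_at differed by −0.49 ± 0.20 and 1439680_at by −0.22 ± 0.15. All 3 were thus lower on average in FLT3-ITD. As a mean over the 3, Tnfsf10 lay at 7.19 to 7.5 in FLT3-ITD and at 7.66 to 7.90 in wild type, groups that did not overlap.

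LIGHT (Tnfsf14), a ligand of the herpesvirus entry mediator and of the lymphotoxin beta receptor, was above the array median on every array as well. Probe set 1450298_at read 7.88, 7.43, 7.14 and 8.63 in FLT3-ITD replicates 1, 2, 3 and 037, against 7.72, 7.47, 7.25 and 7.70 in wild type. FLT3-ITD replicate 037 was the highest of all and FLT3-ITD replicate 3 the lowest, so the wild type values lay inside the FLT3-ITD range, and the difference was 0.24 ± 0.30 (SE). Without FLT3-ITD replicate 037 it was −0.05. Probe set 1421588_at differed by −0.01 ± 0.16.

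4-1BB ligand (Tnfsf9), a costimulator of T cells, had a difference of −0.34 ± 0.30 (SE) that went with its wild type spread. Its probe set read 4.72, 4.84, 4.76 and 4.74 in FLT3-ITD replicates 1, 2, 3 and 037, against 4.66, 6.05, 5.22 and 4.50 in wild type. The FLT3-ITD arrays lay close together, and wild type replicate 2 was the single array on which this probe set exceeded the array median. The FLT3-ITD values lay inside the wild type range, and without wild type replicate 2 the difference was −0.03.

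Tnfsf12, which encodes the ligand TWEAK, could be seen only through 2 probe sets that it shares with other genes. Probe set 1418345_at, annotated to Tnfsf12, Tnfsf13 and their read-through gene Tnfsfm13 together, was higher on every FLT3-ITD array than on any wild type array, by 2.25 ± 0.39 on average (SE). Probe set 1452440_at, annotated to Tnfsf12 and Tnfsfm13, differed by −0.02 ± 0.17, with overlap. Among the 3727 probe sets with several genes or none, 2.6% had separate genotypes with FLT3-ITD higher, and 0.429% passed limma at an adjusted p of 0.05, neither of these 2 among them. Their signal cannot be given to Tnfsf12.

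Tnf, BAFF and Fas ligand were below the median of every array with all their probe sets, where a low level and none cannot be told apart. Tnf, the inflammatory cytokine that names the family, read 5.65, 5.42, 5.15 and 5.77 in FLT3-ITD replicates 1, 2, 3 and 037, against 5.34, 5.24, 5.75 and 5.58 in wild type, a difference of 0.02 ± 0.17 (SE). The 3 BAFF probe sets differed by −0.09 to 0.08 and the 2 Fas ligand probe sets by 0.04 and 0.09. The genotypes overlapped on all 6 of these probe sets.

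Over all 18 member probe sets, 10 were higher and 8 lower on average in FLT3-ITD, with a median difference of 0.03, against 0.02 over all 34945 probe sets. The genotypes did not overlap on 3 of the 18, with FLT3-ITD higher on 2 and lower on 1, where 5.24% of all probe sets had separate genotypes, 3.07% with FLT3-ITD higher and 2.17% with it lower, and 1 of the 18 differed by at least 1 on the log2 scale, where 1.62% of all did. The members were chosen on this contrast, so nothing is read from these shares. The 17 other probe sets lay between −0.55 and 0.50.

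**Figure D2:**
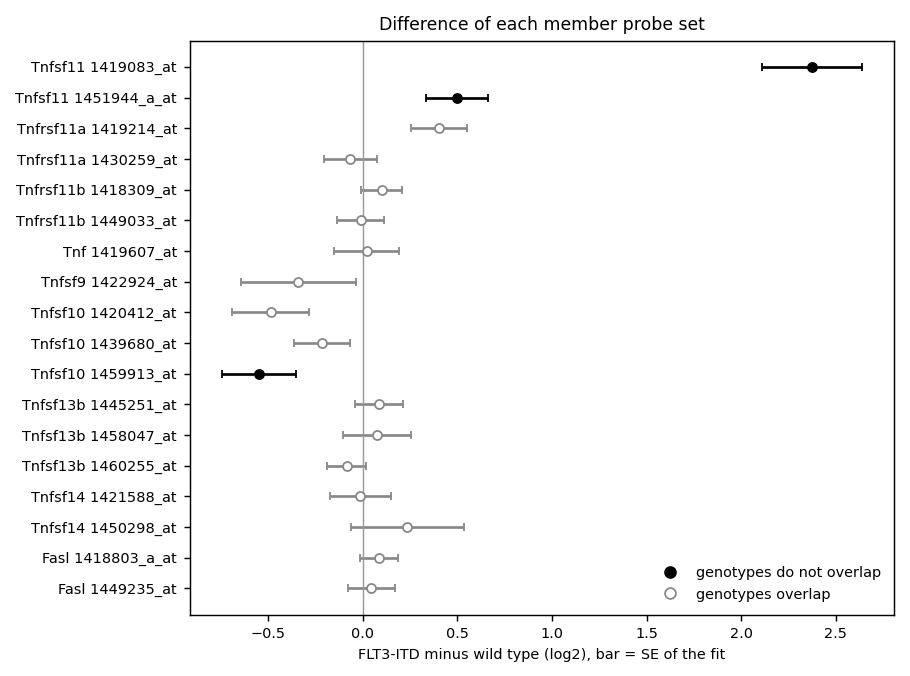
Difference of each member probe set, as FLT3-ITD minus wild type in log2 units, and the standard error of the fit as a bar, filled where the genotypes did not overlap. Tnfsf11 1419083_at lies at 2.37, and the other 17 lie between −0.55 and 0.50.

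For the comparison across genes, a gene was represented by its brightest probe set on average. It was tested with limma, a linear model with moderated variances, where 4 or more arrays had that probe set above their median. This left 10762 genes, of which 46 passed a Benjamini-Hochberg adjusted p of 0.05 upward and 19 downward, 0.604% in all and 0.427% upward. An unadjusted p under 0.05 was reached by 9.58% of them, and 6.22% had genotypes that did not overlap. Of the members, Tnfsf11, Tnfsf10 and Tnfsf14 lay above the filter. Tnfsf11 did so through its FLT3-ITD arrays alone, so it had to differ to be kept, and no call is read for it or for another member. Counting Tnfsf11 itself, 23 genes above the filter were higher in FLT3-ITD by as much or more.

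The arrays correlated at 0.948 to 0.981 with each other, and replicates 1 and 037 at 0.953 in FLT3-ITD and 0.969 in wild type. Flt3, the altered gene, read 9.90, 9.13, 9.45 and 9.02 in FLT3-ITD replicates 1, 2, 3 and 037, against 10.52, 10.68, 10.55 and 10.41 in wild type, and fell by 1.17 log2 units (SE 0.20), with an adjusted p of 0.0406 by limma. Leaving out single samples kept this call only without FLT3-ITD replicate 1, and otherwise gave adjusted p by limma of up to 0.15. A limma fit with a block on replicate number lost the call, at an adjusted p of 0.119. A duplication need not alter the level, so it does not check the labels. Of the genes of the sorting gate, Cd48 rose by 1.06 ± 0.13 (SE; limma adjusted p = 0.00740), Kit averaged 9.14 ± 0.25 in FLT3-ITD and 9.61 ± 0.23 in wild type (SD, n = 4 each), with a limma unadjusted p of 0.0239 and adjusted p of 0.427, Slamf1, which encodes CD150, was below the filter, and Ly6a was not analysed here.

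The 5 genes whose 8 array values, each centred on its gene's mean, lay nearest to those of Tnfsf11 were Timp3, Nhsl2, Rab44, Emilin2 and Mycn. Their root mean square distance from Tnfsf11 was 0.38 to 0.44 on the log2 scale, against a median of 1.26 over all tested genes outside the members. Timp3, an inhibitor of metalloproteinases, averaged 7.76 ± 0.42 in FLT3-ITD and 5.49 ± 0.24 in wild type (SD, n = 4 each). It read 5.53, 5.15, 5.56 and 5.70 in wild type replicates 1, 2, 3 and 037, all below the array medians. Its FLT3-ITD arrays alone met the filter, so the size of its difference is uncertain. Mycn, a transcription factor of the MYC family, averaged 9.89 ± 0.24 in FLT3-ITD and 7.90 ± 0.37 in wild type. Among wild type arrays, replicate 037 was the highest for Tnfsf11 and for Timp3, Nhsl2, Emilin2 and Rab44, a small GTPase gene that read 8.10 there. Mycn was highest in wild type replicate 3 at 8.26. The 5 genes were picked for array values like those of Tnfsf11. Neither this likeness nor their differences of 1.78 to 2.48 carry a test here.

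**Figure D3:**
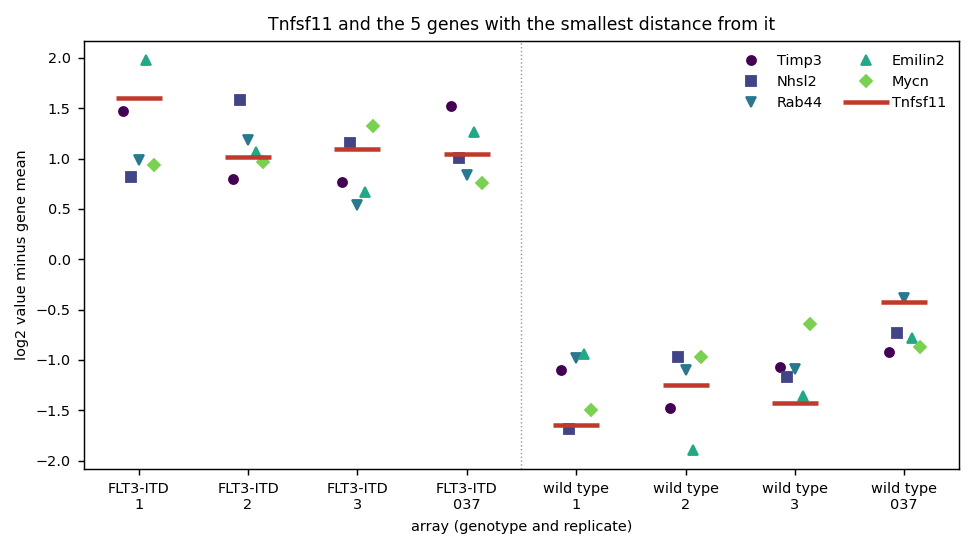
Log2 values minus the gene mean for Tnfsf11 (bars) and the 5 genes nearest to it (points) on each of the 8 arrays, FLT3-ITD left of the dotted line. All 6 genes are above 0 on the FLT3-ITD arrays and below 0 on the wild type arrays.

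Other ligands of the superfamily were mostly dim. Of 10 listed, 7 had a probe set, 6 of these were below the median on all 8 arrays, and the single tested gene was Eda, the ectodysplasin ligand. Eda averaged 6.58 ± 0.22 in FLT3-ITD and 6.14 ± 0.23 in wild type (SD, n = 4 each), groups that did not overlap, with a difference of 0.44 ± 0.16 (SE; limma adjusted p = 0.437). None of this list passed limma, and 1 had an unadjusted p under 0.05.

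Other receptor genes of the superfamily lay above the filter more often than its other ligands. Of 26 other TNF receptor superfamily genes, 25 had a probe set, 13 were tested and 0 passed limma, with 0 at an unadjusted p under 0.05, 5 positive and 8 negative differences and a median of −0.02. The TNF receptors Tnfrsf1a and Tnfrsf1b differed by −0.01 ± 0.16 and −0.18 ± 0.26 (SE). Tnfrsf14, the herpesvirus entry mediator, differed by −0.16 ± 0.29, and Ltbr, the lymphotoxin beta receptor, by 0.04 ± 0.15. Tnfrsf13c, which encodes the BAFF receptor, differed by 0.01 ± 0.25, and Tnfrsf12a, the receptor of the Tnfsf12 product TWEAK, by −0.05 ± 0.24. Fas, Tnfrsf10b, the mouse death receptor for TRAIL, and Tnfrsf9, which binds 4-1BB ligand, were below the filter. The smallest p of the list was that of Cd27, a receptor found on lymphoid-primed progenitors, at −0.38 ± 0.19 (limma adjusted p = 0.602).

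Proteases that release ligands and the adaptors below the receptors showed no call. Of 9 shedding genes 6 were tested and 0 passed limma, with 0 at an unadjusted p under 0.05 and a median difference of 0.20. Adam17, the protease that releases TNF, differed by 0.22 ± 0.30 (SE), and Furin, a proprotein convertase, by 0.26 ± 0.16 (limma adjusted p = 0.667). Of 19 adaptors and kinases 15 were tested and 0 passed, with 0 at an unadjusted p under 0.05 and a median of −0.10. Traf6, the main adaptor of RANK, differed by −0.23 ± 0.20, and Birc2, a ubiquitin ligase of TNF receptor complexes, by −0.41 ± 0.18 (limma adjusted p = 0.522). In the death receptor pathway 8 of 10 genes were tested and 0 passed limma, with 1 at an unadjusted p under 0.05, Mlkl, the executor of necroptosis, at 0.61 ± 0.23 (limma adjusted p = 0.452).

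Of NF-kappaB, the transcription factor system that many of these receptors activate, 8 of 10 subunit and inhibitor genes were tested. By limma 0 passed, while unadjusted p under 0.05 was reached by 2, both lower. Of the 8 differences, 3 were positive and 5 negative. Nfkbiz, an inducible nuclear member of the inhibitor family, read 8.63, 8.83, 9.38 and 7.62 in FLT3-ITD replicates 1, 2, 3 and 037, against 9.61, 9.91, 9.75 and 9.42 in wild type. The groups did not overlap, and the difference was −1.06 ± 0.33 (SE; limma adjusted p = 0.319). As a mean over the Nfkbiz probe sets it was −0.63, and without FLT3-ITD replicate 037 it was −0.73. Nfkb2, the precursor of the subunit used in the alternative pathway below RANK, differed by −0.47 ± 0.15 (limma adjusted p = 0.334).

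Among 18 NF-kappaB target genes 14 were tested and 0 passed limma, with 6 positive and 8 negative differences. The median was −0.15, against 0.02 over all tested genes. An unadjusted p under 0.05 by limma was reached by 3, all lower, where 9.58% of all tested genes reached it. This list was chosen with earlier results of these data known, so nothing is read from that share. The highest difference was that of Ccl5, at 0.87 ± 0.45 (SE), with overlap. The chemokine gene Ccl4 read 7.0, 6.85, 6.62 and 6.62 in FLT3-ITD replicates 1, 2, 3 and 037, against 7.22, 7.87, 7.58 and 7.66 in wild type. All FLT3-ITD arrays were lower, by −0.81 ± 0.17 on average (SE; limma adjusted p = 0.103). Ccl3, its neighbour in the chemokine family, differed by −1.14 ± 0.27 without overlap (limma adjusted p = 0.147). Without wild type replicate 1, Ccl3 passed. In the limma fit with array weights Ccl4 passed instead, at an adjusted p of 0.0408.

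Genes of the osteoclast, the cell that RANK signalling produces, differed in both directions. Of 15 listed, 6 were tested, 3 with positive and 3 with negative differences, from −1.01 to 1.32, with a median of −0.06, against 0.02 over all tested genes. Car2, carbonic anhydrase 2, passed limma downward: it read 10.23, 9.76, 10.29 and 10.31 in FLT3-ITD replicates 1, 2, 3 and 037, against 10.85, 11.38, 11.22 and 11.17 in wild type, and fell by 1.01 log2 units (SE 0.17), with an adjusted p of 0.0449 by limma. Car2 is also an erythroid gene, and its call was lost without any 1 of the 8 samples, with adjusted p of 0.0506 to 0.155. The other 5 did not pass, among them Nfatc1, the transcription factor that RANK signalling induces in osteoclasts, at 0.17 ± 0.47, and Itgb3, the integrin beta 3 chain, at 1.32 ± 0.55 (limma adjusted p = 0.50).

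Of the 9 osteoclast genes below the filter, Ctsk (cathepsin K), Calcr (calcitonin receptor), Atp6v0d2 and Dcstamp differed by −0.05 to 0.17. Acp5, the acid phosphatase used as an osteoclast stain, was singled out after its values were seen. It read 5.84, 6.21, 6.03 and 5.51 in FLT3-ITD replicates 1, 2, 3 and 037, against 4.83, 5.0, 4.58 and 5.12 in wild type. The groups did not overlap, and the difference was 1.02 ± 0.18 (SE; limma adjusted p = 0.0731 in the fit without the filter).

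**Figure D4:**
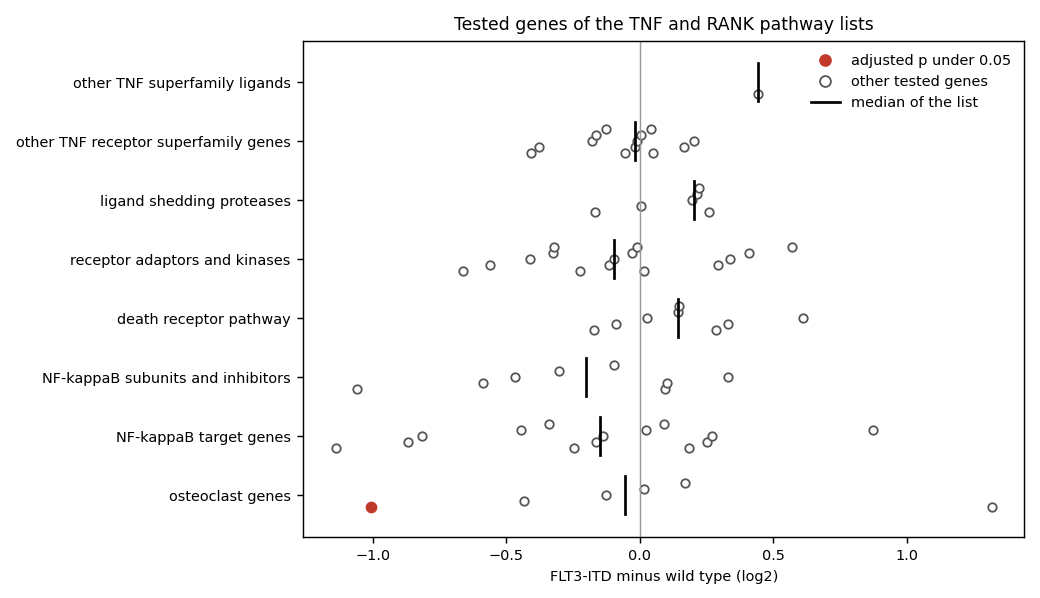
Differences of the tested genes in 8 pathway lists, as FLT3-ITD minus wild type in log2 units, and a bar at each list's median and red for genes past the adjusted p of 0.05. Car2 in the osteoclast list, at −1.01, is the single gene past the threshold.

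Markers of other cells that carry these ligands were set beside the RANK ligand result. In a bulk sample, fewer cells of a type and less RNA per cell cannot be told apart. T, NK and innate lymphoid markers, of cells known to carry RANK ligand, averaged 5.64 to 5.89 in FLT3-ITD and 5.54 to 5.73 in wild type over 12 measured genes, of which 5 were tested, 0 passed limma and 0 had an unadjusted p under 0.05. Cd3e, Cd3d, Cd3g, Ncr1 and Gzma, below the filter, differed by −0.11 to 0.19. The largest differences of this list were those of Klrd1, also below the filter, at 0.73 ± 0.22 and of Cd8a at 0.55 ± 0.26 (SE; limma adjusted p = 0.559 for Cd8a), both with overlap by 1 FLT3-ITD array or more. Stromal and osteoblast markers averaged 5.79 to 5.92 in FLT3-ITD and 5.81 to 5.96 in wild type over 8 measured genes, of which 4 were tested and 0 passed, with 1 lower at an unadjusted p under 0.05, and Cxcl12, Lepr and Sp7 were below the filter. B cell markers averaged 5.29 to 5.35 in FLT3-ITD and 5.11 to 5.48 in wild type over 6 measured genes, with 2 tested, 0 passed and 0 at an unadjusted p under 0.05.

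Dendritic cell markers, as a list mean, were higher on every FLT3-ITD array than on any wild type array. They averaged 7.0 to 8.04 in FLT3-ITD and 5.72 to 5.98 in wild type over 9 measured genes. Of 5 tested, 3 passed limma upward, where 0.427% of all tested genes did. All 3 serve MHC class II antigen presentation: Cd74 rose by 4.12, H2-Eb1 by 4.02 and H2-Aa by 3.13 log2 units. The list was chosen with earlier results of these data known, so nothing is read from its share of calls. Whether these markers followed Tnfsf11 beyond the genotype contrast was not tested. Zbtb46, a transcription factor of classical dendritic cells, read 2.38 ± 0.52 higher (SE; limma adjusted p = 0.124), and the plasmacytoid gene Siglech differed by −0.02 ± 0.11. Of the 4 below the filter, Xcr1 and Itgax differed by 1.86 ± 0.44 and 1.24 ± 0.23 with no overlap between the genotypes, and Cd209a and Ccr7 by 0.30 ± 0.16 and −0.22 ± 0.28 with overlap. Monocyte and macrophage markers averaged 5.75 to 6.10 in FLT3-ITD and 5.36 to 5.78 in wild type over 10 genes, of which 3 were tested and Ccr2, a chemokine receptor, rose by 3.62 ± 0.52 log2 units (SE; limma adjusted p = 0.0213). Ccr2 read 5.37, 3.68, 5.71 and 6.27 in wild type replicates 1, 2, 3 and 037. Of these only replicate 037 was above the array median, so the size of the rise is uncertain. Its FLT3-ITD arrays alone met the filter, and without the filter the limma adjusted p was 0.0316. The other monocyte and macrophage markers overlapped between the genotypes, from C1qb at −1.53 ± 0.62 to Csf1r at 0.96 ± 0.60, and the median over all 10 was −0.03. Mature neutrophil markers averaged 5.67 to 7.92 in FLT3-ITD and 7.03 to 8.45 in wild type over 7 genes, with 0 of 5 passed and 3 lower at an unadjusted p under 0.05. All 5 tested differences were negative, with a median of −1.83. The 2 genes below the filter, Mmp8 and Cxcr2, differed by 0.06 and 0.19, with overlap. The part of these cells in the RANK ligand and TRAIL results was not tested.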

How the data were processed

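The authors deposited 1 log2 expression value per probe set and array, made with RMA per the submitters' processing notes (version not given in the sources); RMA corrects background, brings arrays to 1 distribution and summarises probes. Per the labels' protocols, total RNA came from a Trizol extraction and was amplified (NuGEN WT-Ovation Pico) before biotin labelling. Array medians were 5.98 to 6.05; scanner signal was not analysed here, and the number of arrays limits the precision. The table held 45101 probe sets, of which 34945 had exactly 1 gene in the 2016 platform annotation, 932 had several and 9160 none, besides 64 controls; for 34741 the current symbol came from a RefSeq table of GRCm38.p6, used for names.

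FLT3-ITD was compared with wild type with limma 3.58.1 in R 4.3.3 (lmFit, eBayes, Benjamini-Hochberg), no covariate, over genes and, for the members' differences and errors, over every probe set with 1 gene and no filter. The procedure was tested on simulated data. Beside the members, the text names Flt3, the genes of each pathway list past the test (up to 4) or else the 1 with the smallest p, and the 5 genes nearest to Tnfsf11; other named genes were picked with their values known. The members and lists were chosen with earlier results of these data known. The alternatives changed the filter, the normalization, the choice of probe set, the variance model or array weights, blocked on replicate number, averaged replicates 1 and 037, or left out samples.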

Additional observations from a re-analysis of the deposited data

Results flagged for a closer look

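Outside the members, 2 probe sets are annotated to Tnfsf12 together with other genes. Probe set 1418345_at, given to Tnfsf12, the neighbouring Tnfsf13, which encodes the B cell and plasma cell survival ligand APRIL, and their read-through gene Tnfsfm13, was higher by 2.25 ± 0.39 on the log2 scale in FLT3-ITD (SE). It read 9.14, 8.72, 8.90 and 9.98 in FLT3-ITD replicates 1, 2, 3 and 037, against 6.70, 7.55, 6.09 and 7.42 in wild type, with no overlap. Among the 3727 probe sets with several genes or none, of which 2.6% had separate genotypes in this direction, it missed the threshold by limma (adjusted p = 0.0520). Probe set 1452440_at, given to Tnfsf12 and Tnfsfm13 without Tnfsf13, differed by −0.02 ± 0.17. Which of the genes 1418345_at reads was not tested.

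Of 94 groups of 4 values, 6 contained a sample that lay apart from its group, and chance gives about 1 in 20 groups. Tnfsf11 1419083_at was highest in FLT3-ITD replicate 1 at 7.33, against 6.74 to 6.82 in the other FLT3-ITD samples. Tnfsf11 1451944_a_at was highest in FLT3-ITD replicate 037 at 4.17, against 3.58 to 3.63. Tnfsf10 1459913_at was lowest in FLT3-ITD replicate 037 at 7.17, against 7.70 to 7.79. Car2 was lowest in FLT3-ITD replicate 2 at 9.76, against 10.23 to 10.31. Rab44 was highest in wild type replicate 037 at 8.10, against 7.38 to 7.5, and the mean of stromal and osteoblast markers was lowest in wild type replicate 3 at 5.81, against 5.94 to 5.96.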

How the results depend on the processing

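In the fit of all 8 samples 65 genes passed. The count was 22 with a replicate block, 37 without both replicates 037 (an alternative chosen after seeing the data) and 31 to 57 on leaving out single samples: 35 without FLT3-ITD replicate 2, 39 without FLT3-ITD replicate 3, 34, 31 and 41 without wild type replicates 2, 3 and 037. The count over the members, which their selection fixed and from which nothing is read, was 1, with 1 to 1 on leaving out single samples; it was 0 with the replicate block, and 0 under the stricter filter and as means over probe sets, where Tnfsf11 was not tested. The Tnfsf11 difference was 2.22 to 2.68 over the 15 alternatives with a value, all of them read from probe set 1419083_at. As a mean over both Tnfsf11 probe sets it was 1.44, and on 1451944_a_at alone it was 0.50, so its size depends on the probe set. Same-numbered samples deviated together little, though always in the positive direction (r of 0.03 to 0.11 over genes). FLT3-ITD replicate 2 and wild type replicate 2 correlated slightly better with another number, the other samples best with their own. The labels do not say whether the numbers are pairs, and the main fit took them as unpaired. Osteoclast genes called became 0 with the replicate block, with replicates 1 and 037 averaged, without the filter, without both replicates 037 and without any single sample (0 to 0). NF-kappaB target genes called became 1 with replicates 1 and 037 averaged, 1 with array weights and 0 to 1 on leaving out single samples. The count was 0 for the other pathway lists in the alternatives that tested any of their genes; of the other TNF superfamily ligands no gene was tested under the stricter filter or as means over probe sets. The 234 differences of member probe sets under the alternatives that apply moved by less than 1 SD, which for small differences allows large relative moves: Tnfsf9 was −0.34 and −0.03 without wild type replicate 2, Tnfsf14 1450298_at 0.24 and −0.05 without FLT3-ITD replicate 037, and Tnfsf10 1459913_at −0.55 and −0.26 without both replicates 037. For the 11 member probe sets below the median of every array, a low level and none cannot be told apart. The size of their differences is thus uncertain.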

Other observations

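A transcript named for the strand opposite Tnfsf13, Tnfsf13os, was also higher in FLT3-ITD. Tnfsf13os spans Tnfsf13 and part of Tnfsf12. Its probe set of highest mean read 8.25, 8.12, 8.91 and 7.43 in FLT3-ITD replicates 1, 2, 3 and 037, against 6.64, 6.45, 6.98 and 6.47 in wild type. The groups did not overlap, and the difference was 1.54 ± 0.29 (SE; limma adjusted p = 0.0654), short of the threshold. Its other probe set was dim and differed by 0.23 ± 0.15. These probe sets were looked at after the shared probe set of Tnfsf12 and Tnfsf13 had been seen.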
